A study of Mus musculus with 10 samples.

Results

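Messenger RNA of genes for the primary cilium and for Hedgehog signalling was compared between delta, beta and alpha cells of mouse pancreatic islets. The genes were taken by symbol and not by measured values. They comprise the ciliary transport motors, the intraflagellar transport (IFT) particles, the BBSome, the transition zone, a pair of membrane traffic factors, and the Hedgehog receptors and Gli factors. The rule found 51 genes among the 19213 gene entries of the deposited table. Of these, 6 are motor subunits, 11 belong to the IFT-B particle, 6 to IFT-A, 9 to the BBSome group, 11 to the transition zone, 2 to membrane traffic and 6 to the Hedgehog pathway.

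The primary cilium is a single, non-motile antenna that most islet cells carry. Kinesin motors move IFT-B trains to its tip, and cytoplasmic dynein 2 brings trains back with the help of IFT-A. The BBSome carries membrane proteins out of the cilium, and the transition zone at its base is the gate. In Hedgehog signalling, the receptor Ptch1 holds Smo out of the cilium until a ligand binds, after which Smo enters and the Gli factors are changed from repressors to activators. Ptch1 and Gli1 are also textbook transcriptional targets of the pathway.

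Adult mice carried the reporter mIns1-H2b-mCherry, in which the mouse Ins1 promoter marks beta cell nuclei, a floxed YFP allele, and either Sst-Cre, which marks delta cells, or Gcg-Cre, which marks alpha cells. All groups therefore carried the mCherry and YFP alleles and a Cre, and the beta cells came from islets that also gave delta or alpha cells. Each pool joined the islets of 10 to 12 animals of 1 sex, which were kept overnight at 5.5 mM glucose, dissociated and sorted. There were 2 delta libraries (1 male, 1 female), 5 beta libraries (2 male, 3 female) and 3 alpha libraries (2 male, 1 female). Whether each library is a separate pool is not given in the labels. The titles of beta replicates 4 and 5 share a number and differ in a letter, as do those of alpha replicates 1 and 2. The sample titles carry adjoining numbers for 4 pairs of a beta library with a delta or alpha library of the same sex, but no label says that such a pair shares its islets, so a p-value here covers the spread between libraries and no more, and that spread may be partly technical.

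Values are RPKM, reads per kilobase of gene length, per library size. Library totals recovered from the steps of the table were 16688097 to 26684086 reads, so 1 RPKM corresponded to 16.7 to 26.7 reads per kilobase. The sorted types matched their labels by Sst, Ins2 and Gcg. Gcg was nevertheless 22243 ± 1399 RPKM (SD, n = 2) in delta cells, against 255163 ± 14951 (n = 3) in alpha cells and 1474 ± 866 (n = 5) in beta cells, and the part of alpha cell RNA in the delta values was not tested. RPKM are shares of a library, and 7 hormone genes took 9.81% and 10.6% of the reads in delta libraries, 17.6% to 31.8% in beta libraries and 27.5% to 30.9% in alpha libraries. The median of all genes tested stood 0.25 above beta and 0.26 above alpha in delta cells on the log2 scale. With hormone genes left out of the library total, these differences were 0.06 and -0.02. The cause of the shift was not tested. In bulk libraries, fewer cells of a type and less RNA per cell cannot be told apart.

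Of the 51 genes, 47 passed the filter of at least 1 RPKM in at least 2 libraries and were tested. Gli1, Gli2 and Gli3 were among the 4 that did not pass. Among all 51 genes the median of the group means was 9.17 RPKM in delta cells, 5.84 in beta and 6.77 in alpha cells. Ift20, which links the IFT-B particle to the Golgi, was the most abundant gene in each cell type. Its level was 71.8 and 70.2 RPKM in delta cells, 82.4, 83.1, 77.5, 80.2 and 74.3 in beta cells, and 55.1, 51.1 and 46.6 in alpha cells. No library of 1 type overlapped with those of another for this gene.

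The order of the group means is given for RPKM as deposited, in which the median of all genes tested is shifted up in delta cells. Delta cells had the highest mean for 41 of the 47 tested genes (87.2%, against 55.3% of all genes tested) and the lowest for 0 of them (against 11.2%). Beta cells had the lowest mean for 25 genes (53.2%, against 42.9% of all genes tested). Alpha cells had it for 22 (46.8%, against 46%), which is the background share. In the IFT-B group the order was different, with the lowest mean in alpha cells for 8 of 11 genes (72.7%, against 46%). The heat map of log2 values by library shows both features.

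**Figure D1:**
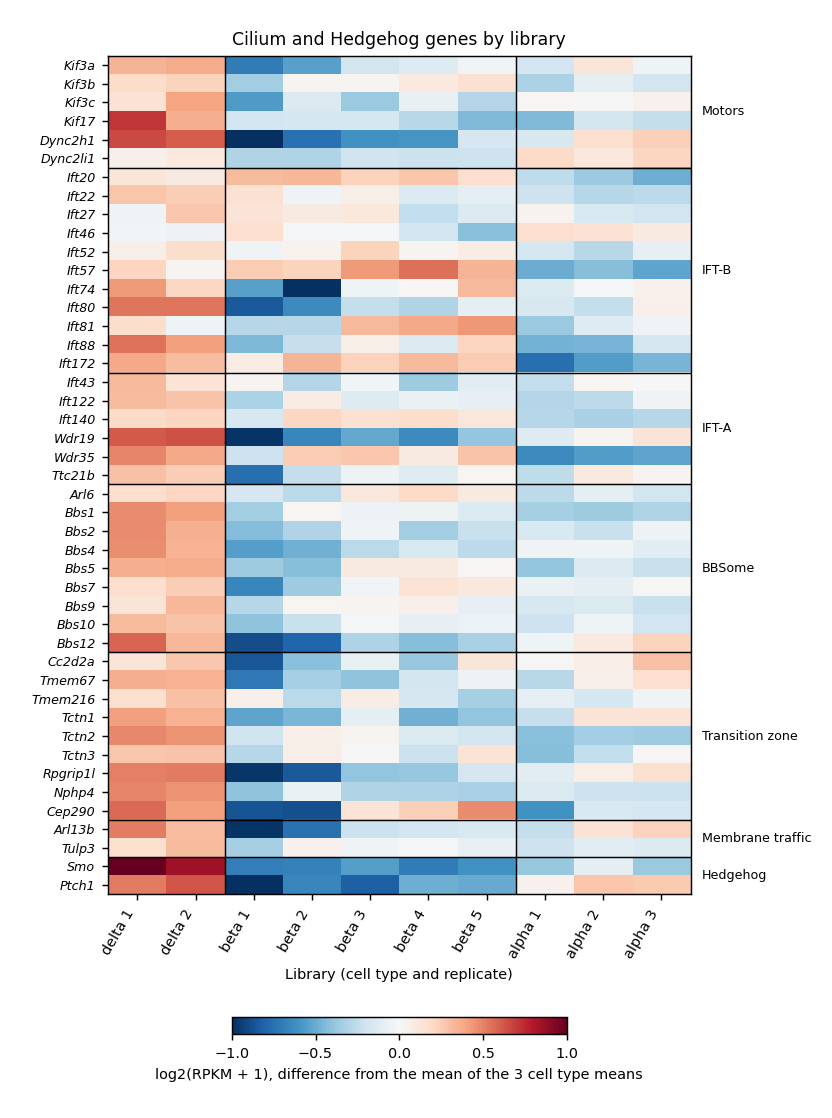
Level of 45 of the 47 tested genes (rows, grouped by role) in each of the 10 libraries (columns), as log2(RPKM + 1) minus the mean of the 3 cell type means; values are as deposited, red is higher and blue lower, and the colour scale ends at 1 on either side. Delta libraries are mostly red, beta replicate 1 is the bluest library for many genes, and the alpha libraries are blue for most of the IFT-B group.

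In the comparison of delta with beta cells, 30 of the 47 tested genes (63.8%) were higher in delta cells and 0 were lower by limma with an adjusted p under 0.05. Of all genes tested, 37.4% were called higher and 13.3% lower. The median log2 fold change was 0.52 for these genes and 0.25 for all genes tested. With median-ratio scaling of the libraries, which brings the median of all genes to about 0, 17 (36.2%) were higher and 2 lower, with 24.6% of all genes higher and 24.4% lower. With hormone genes left out of the library total the counts were 19 and 2, against 26.8% and 22% of all genes. With quantile normalization they were 11 (23.4%) and 2, against 22.5% and 25.2%, so that the share of higher genes was that of the background. Leaving out delta replicate 1 gave 14 higher, with 18.4% of all genes called higher. The 9 genes that were called higher under each of 23 alternatives were Dync2h1, Ift80, Wdr19, Bbs2, Bbs4, Bbs12, Rpgrip1l, Smo and Ptch1. Smo and Kif17, both among the 30 genes called as deposited, passed the filter through the delta libraries alone. Their calls are no independent evidence of the direction.

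In the comparison of alpha with beta cells, 11 genes (23.4%) were higher and 9 (19.1%) lower in alpha cells, where 23.7% of all genes tested were higher and 30.3% lower. The share of higher genes was thus that of the background, and the median log2 fold change was 0.01, against -0.02 for all genes tested. The split was 16 higher and 7 lower with median-ratio scaling (27.8% and 29% of all genes), 12 and 7 with quantile normalization (28% and 27.2%), and 16 and 5 with hormone genes left out (31.1% and 25.7%). Without alpha replicate 3 it was 5 higher and 5 lower (14.5% and 21.9% of all genes), and without alpha replicate 2 it was 6 and 5 (17.4% and 27.3%). Under each of the 23 alternatives, Dync2h1, Dync2li1, Wdr19 and Ptch1 were higher in alpha cells and Ift20, Ift57, Ift172 and Wdr35 lower.

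In the comparison of delta with alpha cells, 23 genes (48.9%) were higher in delta cells and 0 lower, where 32.1% of all genes tested were higher and 5.89% lower. The median log2 fold change was 0.44, against 0.26 for all genes tested. With median-ratio scaling, 7 (14.9%) were higher and 1 lower, against 14.5% and 10.4% of all genes. The counts were 8 (17%) and 1 with quantile normalization, against 15.5% and 16.1%, and also 8 and 1 with hormone genes left out, against 14.7% and 11.1%. The share of higher genes was close to the background in each of these scalings, and the lower gene was Dync2li1. Leaving out delta replicate 1 or 2 gave 10 and 14 higher genes (17.2% and 19.5% of all genes), and leaving out alpha replicate 1 or 3 gave 15 each (25.2% and 22%). Ift172, Wdr35, Bbs1, Tctn2 and Smo were higher under each of the 23 alternatives. Smo and Kif17 are both among the 23 genes called as deposited, and here too their passing the filter through delta libraries alone limits the calls. Each pair of these comparisons shares the libraries of 1 cell type, so their values are given side by side and no overlap between them is read as a result.

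**Figure D2:**
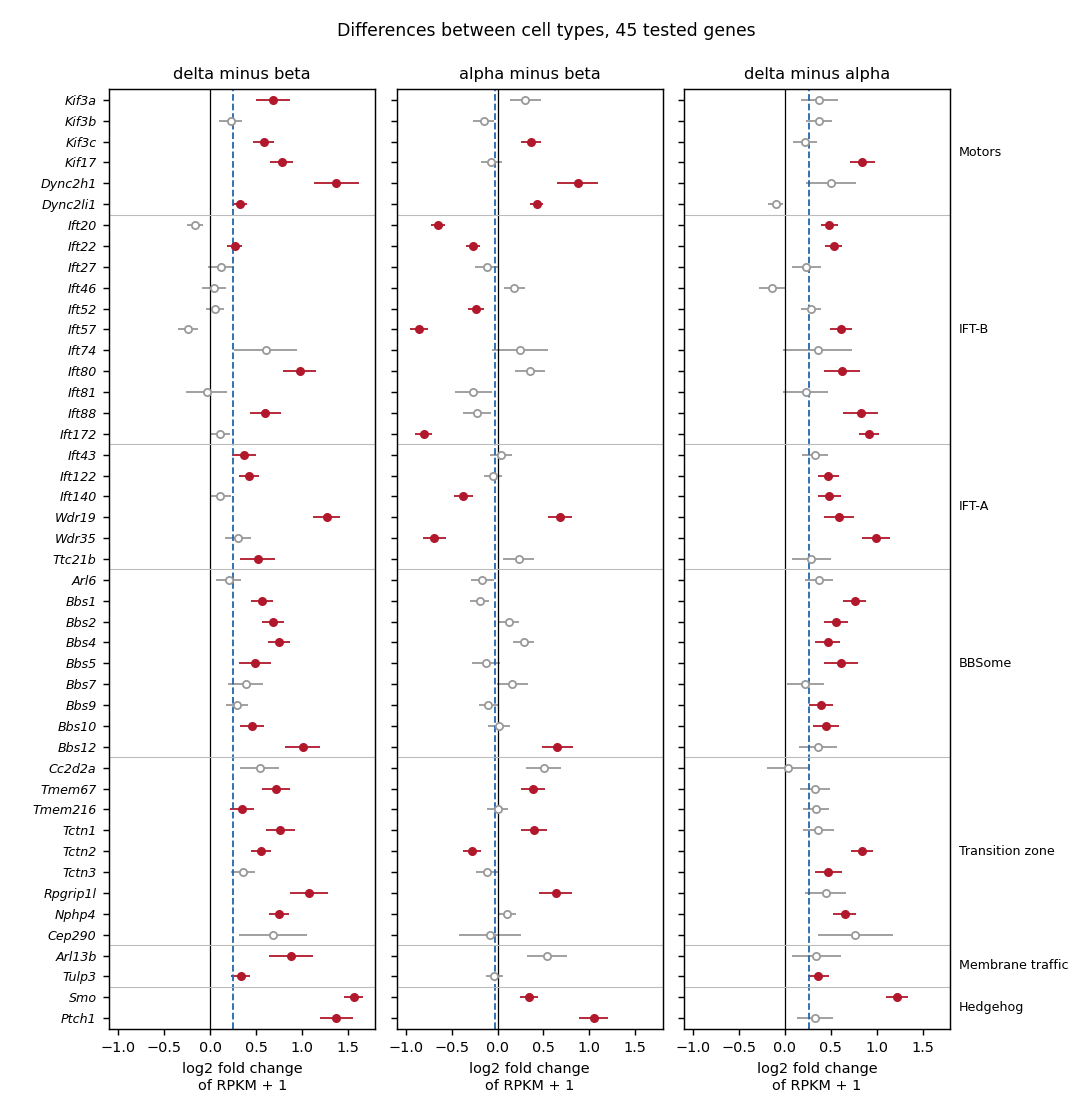
Log2 fold change of RPKM + 1 (x axis, bars are the standard error from limma) of 45 of the 47 tested genes (y axis, by role) in the 3 comparisons; filled red points have an adjusted p under 0.05 and open grey points do not, and the dashed line is the median of all genes tested. Values are as deposited, and 1 or 2 genes are called lower in each outer comparison under other scalings. Called genes in the outer panels all lie to the right of 0, while the alpha to beta panel has called genes on both sides, those to the left mostly in the IFT-B and IFT-A groups.

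Beta replicate 1 was the lowest beta library for 33 of the 47 tested genes (and for 49.8% of all genes tested), and beta replicate 2 for 6 of them (18.2% of all genes). For some genes both were low. Cep290, a large transition zone protein, was 1.45 and 1.42 RPKM there and 3.9, 4.24 and 5.17 RPKM in the other beta libraries. Ift74, a core IFT-B subunit, was 7.91 and 4.74 RPKM there and 11.6, 12.1 and 15.2 RPKM in the others. Without both libraries, a comparison added after seeing the data, 25 genes were higher and 1 lower for delta against beta (35.3% and 15.1% of all genes), 9 were higher and 16 lower for alpha against beta (20% and 35.2%), and 32 were higher for delta against alpha (42.4%).

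The delta libraries and beta replicates 1 and 2 carry the higher numbers in the sample titles, and the alpha libraries and beta replicates 3, 4 and 5 the lower ones. What the numbers stand for is not given in the labels. A term for these sets of numbers, added after seeing the data, compares delta cells with beta replicates 1 and 2 and alpha cells with the other beta libraries. Delta and alpha cells then meet only through the beta libraries. With it, delta cells were called above beta cells for 36 of the 47 (49.1% of all genes) and below for 0 (13.6%), 10 were higher and 13 lower in alpha than beta cells (20.6% and 34.5%), and 37 were higher in delta than alpha cells (44.9%) and 0 lower (4.69%). Cep290 was not called between delta and beta cells without the term (0.69, adjusted p = 0.152) and was with it (1.36, adjusted p = 0.000227). Ift74 went from 0.60 (adjusted p = 0.163) to 1.18 (adjusted p = 0.00104) in the same comparison.

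Counts by role are for values as deposited, and the scaling moved them. With median-ratio scaling, the genes higher in delta cells against beta cells were 4 motor, 1 IFT-B, 1 IFT-A, 4 BBSome, 4 transition zone, 1 membrane traffic and 2 Hedgehog genes, with 2 IFT-B genes lower. Against alpha cells they were 1, 2, 1, 1, 1, 0 and 1, with 1 motor gene lower. The groups held 6, 11, 6, 9, 11, 2 and 2 tested genes in this order. Of all genes tested, 24.6% were higher and 24.4% lower against beta cells, and 14.5% and 10.4% against alpha cells.

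Of the motor subunits, 5 of 6 (83.3%, against 37.4% of all genes) were higher in delta than beta cells. In alpha against beta cells 3 (50%, against 23.7%) were higher, and in delta against alpha cells 1 was (16.7%, against 32.1%). Kif17, counted as higher in delta cells against both other types, passed the filter through the delta libraries alone. Dync2h1, the heavy chain of dynein 2 that drives retrograde transport, was 13.5 and 13 RPKM in delta cells, 2.38, 4.46, 5.01, 5.07 and 7.15 in beta cells, and 7.19, 9.22 and 9.8 in alpha cells. Every delta and alpha library lay above every beta library, although the margin of alpha over the highest beta library was small. Its log2 fold change was 1.38 ± 0.25 (SE) for delta over beta (adjusted p = 0.00177) and 0.87 ± 0.22 for alpha over beta (adjusted p = 0.00879).

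Dync2li1, the light intermediate chain of the same dynein and the most abundant motor gene, was 34.8 and 35.8 RPKM in delta cells, 27, 26.9, 28.9, 28.6 and 28.8 in beta cells, and 38.3, 36.1 and 39.1 in alpha cells. Its highest mean was therefore in alpha cells, with an alpha over beta difference of 0.43 ± 0.07 on the log2 scale (adjusted p = 0.000774). The delta over beta difference of 0.32 ± 0.08 (adjusted p = 0.00743) was 0.03 (adjusted p = 0.80) with median-ratio scaling.

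Kif17, an accessory kinesin of ciliary transport, was 2.59 and 1.8 RPKM in delta cells, 0.613 to 0.935 in beta cells and 0.612 to 0.923 in alpha cells. It was the motor gene called higher in delta than alpha cells, by 0.84 ± 0.14 (adjusted p = 0.0014). It passed the filter through the delta libraries alone, so this call is no independent evidence of its direction. With no filter its adjusted p was 0.00194. Kif3a and Kif3c of the kinesin-2 motors were also higher in delta than beta cells, with log2 fold changes of 0.68 and 0.58, while Kif3b (0.22, adjusted p = 0.167) was not called, and was with the term for the title numbers (0.36, adjusted p = 0.0285). The Kif3a call was lost without delta replicate 1 (0.64, adjusted p = 0.121) or 2 (0.73, adjusted p = 0.0746). For Kif3c, 40.7% of the exon bases overlap 1110002L01Rik, and the library kit did not mark strand, so the reads of this pair cannot be told apart.

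The IFT-B particle differed from the other groups in its counts as deposited. Only 3 of 11 genes (Ift22, Ift80 and Ift88) were higher in delta than beta cells (27.3%, against 37.4% of all genes). In alpha against beta cells 5 of 11 (45.5%, against 30.3%) were lower and 0 higher (against 23.7%). Median-ratio scaling, quantile normalization and hormone genes left out each gave 3 of 11 lower (27.3%) and 1 higher. Of all genes, 29%, 27.2% and 25.7% were lower with these 3 scalings, so the share of lower genes was close to the background. In delta against alpha cells 6 of 11 (54.5%, against 32.1%) were higher. The Ift22 call of delta against beta cells (0.27) was lost with the term for the title numbers (0.21, adjusted p = 0.0735). It was also lost with each of the 3 scalings, and its sign turned with median-ratio scaling (-0.02). The Ift88 call (0.60) was lost with median-ratio scaling (0.33, adjusted p = 0.0557) and quantile normalization (0.28, adjusted p = 0.0806). It was also lost without delta replicate 1 (0.45). The group's median of delta minus beta was 0.11 as deposited, below the 0.25 of all genes tested, and turned to -0.17 with median-ratio scaling, -0.11 with quantile normalization and -0.10 with hormone genes left out. The median of alpha minus beta was -0.23, and lay between -0.22 and -0.07 under these scalings. The difference between role groups was not tested.

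Ift57, a peripheral IFT-B subunit, was 36.4 and 31.8 RPKM in delta cells, 37.3, 36.4, 42.2, 46 and 39.6 in beta cells, and 21.7, 22.9 and 21.3 in alpha cells. Ift172, the peripheral subunit that acts in turnaround at the ciliary tip, was 16.2 and 15.4 RPKM in delta cells, 13, 15.7, 14.5, 15.5 and 14.8 in beta cells, and 6.85, 7.99 and 8.61 in alpha cells. For both genes, which with Wdr35 are given by library after their values were seen, the alpha libraries lay below all others. The difference of alpha from beta cells was -0.85 ± 0.10 for Ift57 (adjusted p = 8.54e-05), -0.80 ± 0.09 for Ift172 (adjusted p = 9.32e-05) and -0.65 ± 0.08 for Ift20 (adjusted p = 0.0001). Delta and beta cells differed by -0.24 ± 0.11 for Ift57 (adjusted p = 0.0919), 0.11 ± 0.10 for Ift172 (adjusted p = 0.38) and -0.17 ± 0.08 for Ift20 (adjusted p = 0.126).

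Other IFT-B genes lower in alpha than beta cells were Ift22 (-0.27) and Ift52 (-0.23). Both calls were lost with each of the 3 scalings. The Ift22 call was also lost without alpha replicate 2 (-0.23, adjusted p = 0.064), and the Ift52 call (adjusted p = 0.0463) without any single library other than beta replicate 1. Ift80, whose loss causes a skeletal ciliopathy, was the IFT-B gene with the largest difference between delta and beta cells, 0.98 ± 0.18 (adjusted p = 0.00219). It was 17.6 RPKM in both delta libraries and 6.15 to 10.9 in beta libraries. Ift27, Ift46, Ift74 and Ift81 were called in none of the 3 comparisons. With the term for the title numbers, Ift74 and Ift81 were called higher in delta cells than in both other types, Ift81 lower (-0.54) and Ift46 higher (0.29) in alpha than beta cells.

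The IFT-A particle split between 2 of its subunits in alpha cells. Wdr19, also known as Ift144 and part of the IFT-A core, was 6.83 and 6.93 RPKM in delta cells, 1.59, 2.26, 2.6, 2.29 and 2.9 in beta cells, and 3.69, 4.21 and 4.58 in alpha cells. The types did not overlap, and their order was delta, alpha, beta. Wdr19 was 1.27 ± 0.15 higher in delta than beta cells (adjusted p = 0.000122) and 0.68 ± 0.13 higher in alpha than beta cells (adjusted p = 0.00215). It was 0.59 higher in delta than alpha cells (adjusted p = 0.0182), a call lost with each of the 3 scalings (adjusted p = 0.064 to 0.126).

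Wdr35, also known as Ift121, was 13.8 and 12.8 RPKM in delta cells, 8.19, 11.6, 11.8, 10.3 and 11.9 in beta cells, and 5.83, 6.2 and 6.37 in alpha cells. Here alpha cells were lowest, with a difference of -0.69 ± 0.13 from beta cells (adjusted p = 0.00154), and delta cells were 0.99 ± 0.15 higher than alpha cells (adjusted p = 0.000943). The most abundant IFT-A gene, Ift122, was 15 and 14.6 RPKM in delta cells, 9.29, 12.5, 10.7, 11.3 and 11.1 in beta cells, and 9.46, 9.72 and 11.6 in alpha cells. Its delta over beta difference of 0.42 (adjusted p = 0.00897) was not called with any of the 3 scalings, nor without delta replicate 1 (0.30, adjusted p = 0.15). Ift140 was also lower in alpha than beta cells, with a difference of -0.37 (adjusted p = 0.0136), a call lost without alpha replicate 3 (-0.33, adjusted p = 0.099).

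**Figure D3:**
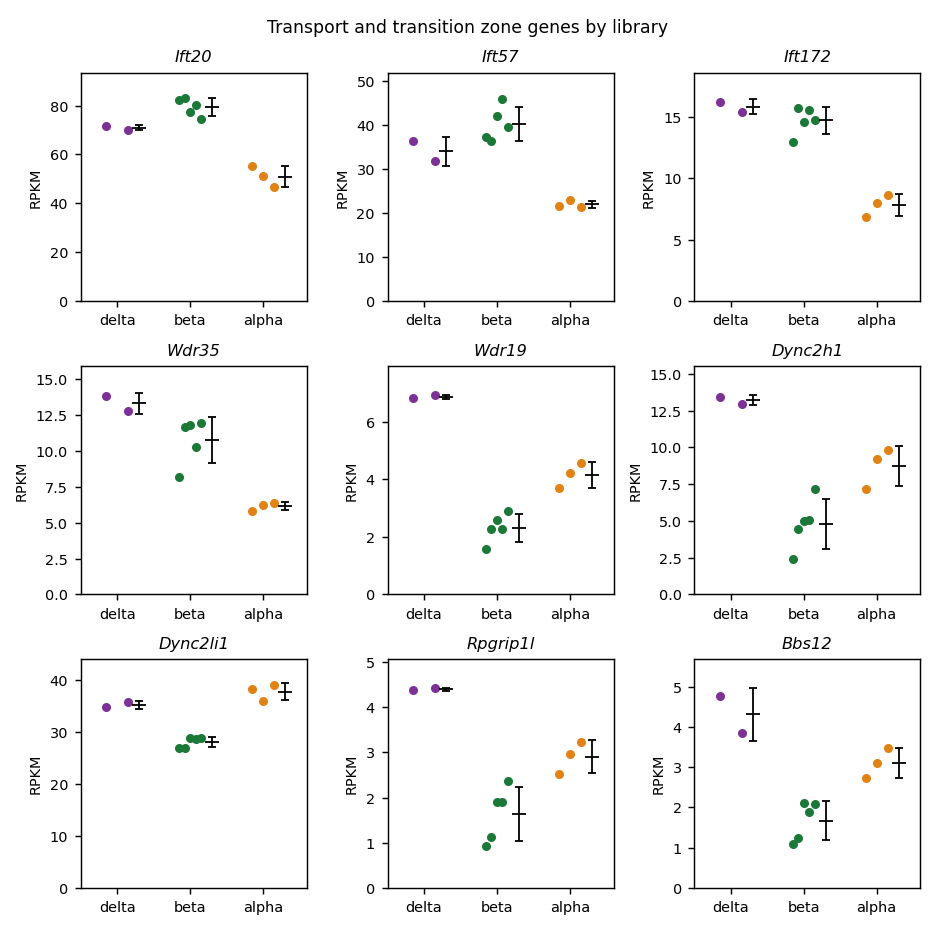
RPKM (y axis, linear from 0) of 9 genes of transport, the BBSome group and the transition zone in the delta, beta and alpha libraries; each point is a library, and the black bar beside it is the mean with 1 SD (n = 2, 5 and 3). Alpha libraries are lowest for Ift20, Ift57, Ift172 and Wdr35, and beta libraries are lowest for Wdr19, Dync2h1, Dync2li1, Rpgrip1l and Bbs12.

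In the BBSome group, 6 of 9 genes (66.7%, against 37.4% of all genes) were higher in delta than beta cells. In delta against alpha cells 6 (66.7%, against 32.1%) were higher, and in alpha against beta cells 1 was (11.1%, against 23.7%). The most abundant by the mean of the 3 types was Arl6, the small GTPase that recruits the BBSome to membranes, at 19.5 and 20 RPKM in delta cells, 15.2, 14.1, 18.7, 19.7 and 18.4 in beta cells, and 14.1, 16 and 15 in alpha cells. It was called in none of the comparisons, and the delta and beta libraries overlapped. With the term for the title numbers its difference from beta cells was 0.41 in delta (adjusted p = 0.00551) and -0.32 in alpha cells (adjusted p = 0.0107). Bbs12, a chaperonin-like factor of BBSome assembly, was 4.78 and 3.85 RPKM in delta cells, 1.08, 1.23, 2.11, 1.87 and 2.08 in beta cells, and 2.73, 3.115 and 3.49 in alpha cells. The types did not overlap for Bbs12, and delta was 1.01 ± 0.19 higher than beta (adjusted p = 0.00218). Its delta over alpha difference of 0.36 was not called (adjusted p = 0.20).

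The alpha over beta difference of Bbs12 was 0.65 ± 0.17 (adjusted p = 0.0101), and 0.56 (adjusted p = 0.083) without alpha replicate 3. Among the structural BBSome subunits, Bbs2 and Bbs4 were higher in delta than beta cells by 0.68 ± 0.12 (adjusted p = 0.00147) and 0.75 ± 0.12 (adjusted p = 0.00113). Bbs1, the subunit that binds Arl6, was 0.76 ± 0.13 higher in delta than alpha cells (adjusted p = 0.00147). Bbs7 and Bbs9 were not called between delta and beta cells, and were with the term for the title numbers (0.71 and 0.37).

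Of the transition zone genes, 8 of 11 (72.7%, against 37.4% of all genes) were higher in delta than beta cells. In alpha against beta cells 4 (36.4%, against 23.7%) were higher and 2 (18.2%, against 30.3%) lower. In delta against alpha cells 4 (36.4%, against 32.1%) were higher. Rpgrip1l, a scaffold of the transition zone, was 4.38 and 4.42 RPKM in delta cells, 0.93, 1.12, 1.89, 1.91 and 2.37 in beta cells, and 2.52, 2.97 and 3.24 in alpha cells. Its types did not overlap, and the delta over beta difference was 1.08 ± 0.20 (adjusted p = 0.00228). The delta over alpha difference of 0.44 was not called (adjusted p = 0.149). The alpha over beta difference of 0.64 ± 0.18 (adjusted p = 0.0157) was lost without alpha replicate 2 (0.60, adjusted p = 0.052) or 3 (0.62, adjusted p = 0.081), and was 0.39 (adjusted p = 0.0129) with the term for the title numbers. Tctn2, a tectonic, was 0.84 ± 0.12 higher in delta than alpha cells (adjusted p = 0.000608).

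Both membrane traffic genes were higher in delta than beta cells, where 37.4% of all genes were. Tulp3, the adaptor that brings receptors into the cilium with IFT-A, was 11.6 and 13 RPKM in delta cells, 7.98, 10.7, 9.97, 10.2 and 9.7 in beta cells, and 8.76, 9.45 and 9.3 in alpha cells. Its difference of 0.33 ± 0.11 (adjusted p = 0.0291) was 0.06 (adjusted p = 0.67) with median-ratio scaling. Arl13b, a GTPase of the ciliary membrane, was 8.48 and 7.2 RPKM in delta cells, 2.37 to 4.98 in beta cells and 4.61 to 6.8 in alpha cells. Its delta over beta difference was 0.88 ± 0.24 (adjusted p = 0.0153), and 0.66 (adjusted p = 0.18) without delta replicate 1.

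Among the Hedgehog genes, the receptor Ptch1 and the transducer Smo stood well above the Gli factors, and both were highest in delta cells. Smo (GRCm38, chr6:29735503-29761365) was 2.86 and 2.46 RPKM in delta cells, 0.192, 0.206, 0.312, 0.184 and 0.264 in beta cells, and 0.482, 0.804 and 0.49 in alpha cells. These values rest on 230 and 182 reads in delta, 17 to 28 in beta and 32 to 54 in alpha libraries. The types did not overlap, and the ratio of mean RPKM was 11.5 for delta over beta and 4.5 for delta over alpha.

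On the log2(RPKM + 1) scale, which understates the change of a gene this low, Smo was 1.56 ± 0.11 higher in delta than beta cells (adjusted p = 3.79e-06) and 1.22 ± 0.12 higher than in alpha cells (adjusted p = 4.99e-05). Smo passed the filter through the delta libraries alone, so that a gene this low entered the test because delta cells were high, and these calls are no independent evidence of that direction. With no filter the adjusted p were 4.57e-06 and 4.25e-05. The alpha over beta difference of Smo was 0.34 ± 0.10 (adjusted p = 0.0144). That call was lost with quantile normalization (0.18, adjusted p = 0.119), without alpha replicate 2 (0.27, adjusted p = 0.0542) and without alpha replicate 3 (0.37, adjusted p = 0.0564).

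Ptch1 (chr13:63508328-63573598) was 16.2 and 17.4 RPKM in delta cells, 3.58, 6.62, 5.78, 7.54 and 7.43 in beta cells, and 11.3, 13.4 and 13.3 in alpha cells. The beta libraries were lowest, and all alpha libraries lay below both delta libraries. It was 1.38 ± 0.18 higher in delta (adjusted p = 0.00025) and 1.05 ± 0.16 higher in alpha cells (adjusted p = 0.000543) than in beta cells, and both calls held under each of the 23 alternatives. Delta and alpha cells differed by 0.33 ± 0.20 (adjusted p = 0.219), a difference that was called without beta replicate 1 (0.36, adjusted p = 0.036) and with the term for the title numbers (0.70, adjusted p = 0.0251).

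The Gli factors were close to the limit of detection and are described without a test. Gli2, the main activator, had 13 and 6 reads in delta libraries, 0, 0, 0, 1 and 2 in beta libraries, and 11, 6 and 12 in alpha libraries. These correspond to 0.0959 and 0.0482, at most 0.0112, and 0.0983, 0.053 and 0.103 RPKM. Beta cells thus had the fewest Gli2 reads. Gli3, the main repressor, had 3 and 2 reads in delta libraries (0.0176 and 0.0128 RPKM), 4, 12, 13, 20 and 22 in beta libraries (0.0181 to 0.102 RPKM), and 5, 5 and 1 in alpha libraries (0.0356, 0.0352 and 0.0068 RPKM). The beta libraries were highest apart from beta replicate 1, which lay within the range of the alpha libraries. Gli1 had no reads in 9 of 10 libraries, where a count of 0 allows up to 3 reads, and was 0.0164 RPKM in alpha replicate 1.

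**Figure D4:**
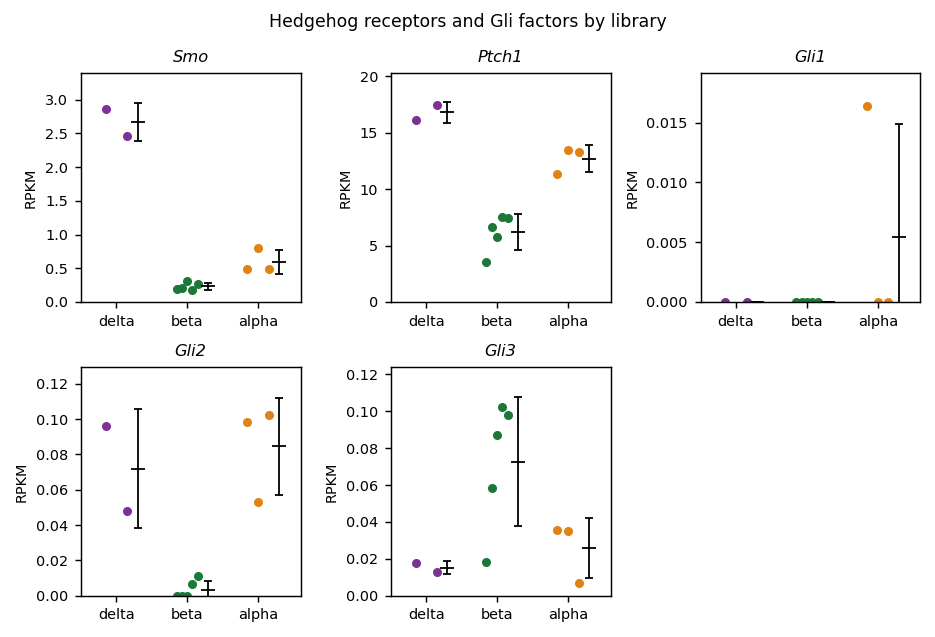
RPKM (y axis, linear from 0, a different scale for each gene) of 5 Hedgehog genes in the delta, beta and alpha libraries; each point is a library, and the black bar is the mean with 1 SD, drawn down to 0 at most. Smo and Ptch1 are highest in delta libraries, and Gli1, Gli2 and Gli3 stay at or under 0.103 RPKM in every library.

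No difference between the sexes was called. Of the 47 tested, 0 were called between female and male libraries by limma, where 0.0472% of all genes tested were called, and 2 had an unadjusted p under 0.05. The interaction of cell type and sex, tested in alpha and beta libraries only, called 0 of the 47, with 0% of all genes tested called and 0 of the 47 at an unadjusted p under 0.05. Alpha cells had 1 female library and delta cells 1 library per sex, so these tests are weak.

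The promoters were searched for the X-box, the palindromic motif bound by RFX transcription factors, which control many ciliary genes. RefSeq promoters (GRCm38.p6, 250 bases before to 50 after the start) matched 42 of the 51 genes by symbol. The genes Dync2li1, Ift80, Ift81, Ift122, Tmem67 and Gli1 were among those with no entry. The full motif, GTTNCCNNGGNAAC, reads the same on both strands, and was in 2 of 42 promoters (4.76%, exact 95% binomial interval 0.582% to 16.2%), against 0.529% of 27025 genes. The looser form GTNNCCNNGGNNAC, also the same on both strands, includes the full one and was in 10 of 42 (23.8%, interval 12.1% to 39.5%), against 2.16% of the genes. The shorter motif GTTGCC, added after seeing the data and searched on both strands, lies within many full motifs and was in 18 of 42 (42.9%), against 14.1%.

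The 2 promoters with the full motif belong to Bbs7 and Tctn1 and are printed whole, 5′ to 3′ on the strand of the gene, with the motif in capitals. The Bbs7 window is chr3:36613340-36613639 and the Tctn1 window chr5:122264411-122264710, both on the minus strand, and the last 50 bases follow the start of transcription. The motif begins 121 bases before the start in Bbs7 and 36 bases after it in Tctn1. Tctn1, a tectonic of the transition zone, was 5.33 and 5.06 RPKM in delta cells, 2.31 to 3.47 in beta cells and 3.06 to 4.26 in alpha cells, but 25.5% of its exon bases overlap Hvcn1, whose reads cannot be told apart from it. Its difference between delta and beta cells was 0.76 ± 0.16 (adjusted p = 0.00352), and 0.28 (adjusted p = 0.082) with quantile normalization. Bbs7, a BBSome subunit, was 12 and 12.7 RPKM in delta cells, 6.36 to 11.7 in beta cells and 9.83 to 10.6 in alpha cells, and was not called in the 3 comparisons as deposited.
Bbs7: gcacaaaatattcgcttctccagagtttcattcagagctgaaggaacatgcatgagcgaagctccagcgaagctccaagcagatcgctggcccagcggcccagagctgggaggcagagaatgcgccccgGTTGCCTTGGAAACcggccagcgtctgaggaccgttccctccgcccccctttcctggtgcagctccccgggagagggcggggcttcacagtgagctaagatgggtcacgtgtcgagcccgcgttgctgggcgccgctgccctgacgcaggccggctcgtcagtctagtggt
Tctn1: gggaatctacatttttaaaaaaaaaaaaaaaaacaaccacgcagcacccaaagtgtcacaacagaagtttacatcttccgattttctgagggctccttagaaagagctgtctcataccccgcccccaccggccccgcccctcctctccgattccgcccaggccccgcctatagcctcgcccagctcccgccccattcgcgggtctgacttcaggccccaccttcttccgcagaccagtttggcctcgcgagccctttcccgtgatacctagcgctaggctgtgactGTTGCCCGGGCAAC

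The sites of the other 8 genes with the looser motif are shown with 8 flanking bases in lower case, because they carry the motif counted here. They were chosen after the matches were seen.
Bbs1: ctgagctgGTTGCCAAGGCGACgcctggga
Bbs4: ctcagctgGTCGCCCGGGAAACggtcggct
Ift22 distal: ctgtcaggGTTTCCTGGGCTACtgcgcagc
Ift22 proximal: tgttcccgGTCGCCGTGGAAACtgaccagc
Ift57: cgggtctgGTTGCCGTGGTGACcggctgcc
Nphp4: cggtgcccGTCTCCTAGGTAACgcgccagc
Tctn2: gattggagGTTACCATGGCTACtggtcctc
Tmem216: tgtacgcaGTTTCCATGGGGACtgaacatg
Wdr19: tttgcacgGTCTCCTGGGTGACgagaacgc

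Positions of these sites are chr19:4906613-4906626 for Bbs1, chr9:59353472-59353485 for Bbs4, chr5:136908087-136908100 and chr5:136908117-136908130 for the sites of Ift22, chr16:49699207-49699220 for Ift57, chr4:152477911-152477924 for Nphp4, chr5:124598687-124598700 for Tctn2, chr19:10555731-10555744 for Tmem216 and chr5:65199662-65199675 for Wdr19. Of the genes with a promoter that were tested, 8 of 10 with the looser motif (80%) and 16 of 30 without it (53.3%) were higher in delta than beta cells, where 37.4% of all genes tested were higher, and their medians were 0.56 and 0.50. The counts were 5 and 10 with median-ratio scaling (24.6% of all genes), 2 and 7 with quantile normalization (22.5%) and 6 and 11 with hormone genes left out (26.8%). The difference between genes with and without the motif was not tested. In alpha against beta cells, 2 were higher and 3 lower with the motif, and 6 higher and 5 lower without it, where 23.7% of all genes were higher and 30.3% lower. A match describes these letters only, and no binding was measured.

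RFX and other ciliary transcription factors were read as a separate list. Of 9 tested, 8 (88.9%) were higher in delta than beta cells with 0 lower, where 37.4% of all genes were higher and 13.3% lower. Alpha against beta cells had 7 (77.8%) higher and 1 lower, where the shares of all genes were 23.7% and 30.3%. The 3 (33.3%) that were higher in delta than alpha cells are the background share, 32.1%. The list's median of delta minus beta was 0.99, and 0.57 to 0.82 with the 3 scalings. Rfx3, a regulator of ciliary genes that is needed for islet cell differentiation, was 15.4 ± 1.86 RPKM in delta cells (SD, n = 2), 3.63 ± 1.55 in beta (n = 5) and 6.57 ± 1.20 in alpha cells (n = 3), with a delta over beta difference of 1.91 ± 0.28 (adjusted p = 0.000592). Rfx6, an islet lineage factor, was 1.46 higher in delta than beta cells, and Rfx7 1.19. Rfx7 and Rfx2 were higher in alpha than beta cells by 1.28 and 1.14. Glis3, a ciliary Krüppel-like factor that acts in beta cells, was lower in alpha than beta cells (-1.11), and was 1.58 higher in delta than alpha cells. Foxj1, the master factor of motile cilia, was at or under 0.23 RPKM in every library.

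Other transport genes, 17 of them tested, were higher in delta than beta cells for 9 (52.9%, against 37.4% of all genes) and lower for 0. That split was 2 and 0 with median-ratio scaling (24.6% and 24.4% of all genes) and 2 and 2 with quantile normalization (22.5% and 25.2%). Wdr60, an intermediate chain of dynein 2, and Hspb11, also known as Ift25, led with 0.79 and 0.67, and Cluap1 followed with 0.55. In alpha cells, the IFT-B gene Ttc26 (-0.61) and the BBSome gene Ttc8 (-0.49) were lower than in beta cells, while Rabep2 was 0.61 higher. In delta against alpha cells 9 (52.9%, against 32.1% of all genes) were higher, among them Hspb11 (0.75), Ttc8 (0.74) and Trim32 (0.72). With median-ratio scaling, 4 were higher and 1 lower, where 14.5% and 10.4% of all genes were.

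Of 32 other transition zone and basal body genes, 20 (62.5%, against 37.4% of all genes) were higher in delta than beta cells and 1 lower. That split was 7 and 3 with median-ratio scaling (24.6% and 24.4% of all genes) and 7 and 2 with quantile normalization (22.5% and 25.2%). The kinase Nek8 was 5.60 ± 0.32 RPKM in delta cells, 0.957 ± 0.163 in beta cells and 2.67 ± 0.57 in alpha cells, 1.77 higher in delta than beta cells (adjusted p = 7.75e-06). The lebercilin gene Lca5 and the tubulin-modification factor Cep41 followed with 1.60 and 1.45. Alpha against beta cells had 7 higher (21.9%, against 23.7% of all genes), with Nek8 (0.93) and Lca5 (0.83) leading, and 4 lower, with the ciliary membrane GTPase Rab8a (-1.05) leading. In delta against alpha cells 14 (43.8%, against 32.1% of all genes) were higher and 0 lower, led by Cep41 (1.36), Ahi1 (1.03) and Tmem231 (0.92). That split was 4 and 0 with median-ratio scaling (14.5% and 10.4% of all genes).

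Among 31 other Hedgehog genes, 20 were tested. In delta against beta cells 9 (45%, against 37.4% of all genes) were higher and 2 lower. In alpha against beta cells 4 (20%, against 23.7%) were higher and 3 lower, and in delta against alpha cells 7 (35%, against 32.1%) were higher and 2 lower. These shares lie near the background. With median-ratio scaling the counts were 6 and 2 (24.6% and 24.4% of all genes), 4 and 3 (27.8% and 29%), and 4 and 2 (14.5% and 10.4%). With quantile normalization they were 4 and 3 (22.5% and 25.2%), 5 and 3 (28% and 27.2%), and 3 and 2 (15.5% and 16.1%). Evc2, which relays the Smo signal in the cilium, was 1.95 ± 0.028 RPKM in delta cells, 0.0848 ± 0.0352 in beta cells and 0.263 ± 0.042 in alpha cells. Its delta over beta difference was 1.44 ± 0.09 (adjusted p = 1.57e-06) and its delta over alpha difference 1.22 ± 0.09 (adjusted p = 1.27e-05). Scube2, which helps release Hedgehog ligands, and the co-receptor Cdon were also higher in delta than beta cells, by 1.10 and 0.91, and than in alpha cells, by 1.27 and 0.92. Evc2 and Scube2 passed the filter through the delta libraries alone, and their calls are no independent evidence of the direction.

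The ligand-acylating enzyme Hhat was lower in alpha than beta cells (-1.52, adjusted p = 1.18e-05), as was Disp2 (-0.81), while the ciliary receptor Gpr161 was 0.76 higher. The ligands were nearly undetected, with Shh, Ihh and Dhh at or under 0.123 RPKM in every library. The Hedgehog target Hhip was listed above 0 in 1 beta library only, at 0.00413 RPKM, and Kif7 was at or under 0.127 RPKM.

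Ciliary membrane receptors, channels and cyclases were tested for 9 genes, of which delta cells had 5 higher than beta cells (55.6%, against 37.4% of all genes) and 1 lower. The split was 4 and 1 with median-ratio scaling (24.6% and 24.4% of all genes). It was 3 and 2 with quantile normalization (22.5% and 25.2%) and 4 and 1 with hormone genes left out (26.8% and 22%). Kiss1r, called higher in delta than in both other types, passed the filter through the delta libraries alone. Its calls are no independent evidence of the direction. The fatty acid receptor Ffar4 was 60.9 ± 4.48 RPKM in delta cells, 2.90 ± 1.64 in beta cells and 23.3 ± 1.75 in alpha cells, with differences of 4.09 for delta over beta and 2.75 for alpha over beta. Galr3, a galanin receptor, was lower than in beta cells both in delta (-0.81) and in alpha cells (-2.73). The somatostatin receptor Sstr3 was lower in alpha than beta cells (-0.85). Pkd1 was 1.08 higher in delta than beta cells. In delta against alpha cells 5 (55.6%, against 32.1% of all genes) were higher and 0 lower, among them Galr3 (1.91), Ffar4 (1.34) and Sstr3 (0.82). The Ffar4 call was lost with hormone genes left out (adjusted p = 0.0725) and the Sstr3 call with median-ratio scaling (adjusted p = 0.054). This split was 4 and 1 with median-ratio scaling (14.5% and 10.4% of all genes). It was 5 and 1 with quantile normalization (15.5% and 16.1%) and 4 and 1 with hormone genes left out (14.7% and 11.1%).

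Genes of motile cilia were read as a contrast to the primary cilium. Of 20 tested, 13 (65%) were higher and 2 lower in delta than beta cells, where 37.4% of all genes were higher and 13.3% lower. In alpha against beta cells 9 (45%) were higher and 7 (35%) lower, against 23.7% and 30.3%, and in delta against alpha cells 12 (60%) were higher and 3 lower, against 32.1% and 5.89%. Of the 20, 4 passed the filter through the delta libraries alone, 1 through alpha and 1 through beta, so these counts support no direction. With median-ratio scaling the splits were 11 and 5 (24.6% and 24.4% of all genes), 9 and 7 (27.8% and 29%), and 6 and 3 (14.5% and 10.4%). Drc1, a dynein regulatory subunit, was 11.7 ± 0.42 RPKM in delta cells, 0.999 ± 0.262 in beta cells and 19.9 ± 2.30 in alpha cells. The tektin gene Tekt2 and the axonemal dynein Dnah2 were higher in delta than beta cells by 2.37 and 2.19, and than in alpha cells by 1.5 and 2.10. Against beta cells, alpha cells had higher Drc1 (3.43) and Dnah11 (1.62) and lower Mns1 (-1.17). Dnah2 passed the filter through the delta libraries alone and Dnah11 through the alpha libraries alone.

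Markers of other cell types were summed in each library. The summed RPKM of 6 Schwann cell markers was 9.92 to 10.2 in delta, 2.23 to 2.89 in beta and 4.82 to 5.4 in alpha cells. Smo, Ptch1, Wdr19, Bbs12 and Rpgrip1l, among others, had the same order of types. Of the 6 markers, 2 passed the filter, and Gfap and Foxd3 were at 0 in delta cells. For 10 stellate and mesenchymal markers, cells in which Hedgehog targets are usually found, the sums were 1.08 to 1.44 in delta, 0.305 to 1.68 in beta and 3.63 to 4.48 in alpha cells, so the delta libraries lay within the beta range. Sums of 10 immune markers were 15.9 to 18.4 in delta, 93 to 173 in beta and 10.5 to 30.5 in alpha cells. Sums of 12 acinar markers reached 9959 in beta, 3087 in alpha and 998 in delta cells, and 7 dividing cell markers lay between 2.88 and 4.71 in all libraries. Sums of 10 ductal markers, cells that also carry primary cilia, were 347 to 418 in delta, 550 to 743 in beta and 843 to 1976 in alpha cells. Of the 7 ductal markers tested, 2 were higher and 1 lower in delta than beta cells (37.4% and 13.3% of all genes). Against alpha cells, 2 were also higher and 1 lower in delta cells (32.1% and 5.89% of all genes). Sums of 9 endothelial markers were 8.21 to 10.8, 4.88 to 10.7 and 6.85 to 10.3. Apart from these values, the part of such cells in the differences was not tested.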

How the data were processed

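The authors deposited a single table of RPKM, holding 19213 gene entries for the 10 libraries. The tools named per the submitters' processing notes are STAR 2.4, featureCounts and edgeR 3.12.0, on build GRCm38.p3. The sources used here name neither the annotation, nor how reads matching several genes were treated, nor a scaling factor. For 16283 of 19209 uniquely named genes a step was found at which the values are whole reads. Of their values, 99.98% are whole within 0.05 read. The genes were chosen by such a match, so this share is no separate check of the recovered totals. The files hold no counts, so no count test was run.

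Each value entered as log2(RPKM + 1) into a limma fit (limma 3.58.1, R 4.3.3) of all 10 libraries with trend, cell type and sex. It had 6 residual degrees of freedom and 3.16 prior ones (median). The filter of 1 RPKM or more in at least 2 libraries left 12700 genes. The Benjamini-Hochberg adjustment ran over all of them, and calls were made at an adjusted p under 0.05. The script was tested on simulated data. Leaving out a delta library leaves 1, whose spread is assumed to be that of the other types.

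Gene coordinates come from GENCODE M21 (GRCm38), matched by symbol for all 51 genes, and are 1-based. All are protein coding there except Tctn2, a processed transcript. Exons of Kif3c (40.7%) and Tctn1 (25.5%, with Hvcn1) overlap another gene by at least 20%, and the kit does not mark strand. Named in every library were the Hedgehog genes, ciliary genes called with an absolute log2 difference of 1 or more, and the most abundant gene of each role, with others named by count. Of the 51 genes, 3 are counted but not reported singly here. From each of 6 further lists, up to 3 called genes with the largest differences were named. The genes and lists were chosen with earlier results of these data known.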

Additional observations from a re-analysis of the deposited data

Results flagged for a closer look

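In the group of 5 beta libraries, 1 library lay far from the other 4 for 4 of 50 genes with a beta range above 0, by the Dixon criterion, which chance meets in about 1 of 20 groups. Kif3b was lowest in beta replicate 1, at 11.8 RPKM, and Ift140 was lowest there as well, at 4.11 RPKM. Tctn1 was highest in beta replicate 3, at 3.47 RPKM, and Nphp4 was highest in beta replicate 2, at 2.57 RPKM. The delta and alpha groups were too small for this check.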

How the results depend on the processing

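Counts of higher and lower genes moved with the scaling of the libraries. In delta against beta cells, 30 higher and 0 lower became 17 and 2 with median-ratio scaling, 11 and 2 with quantile normalization and 19 and 2 with hormone genes left out. The lower genes were Ift20 and Ift57, or Ift57 and Ift140 with quantile normalization. With no filter 1 gene was lower, and 1 (Ift57) without beta replicates 1 and 2 together. In alpha against beta cells, the 9 lower genes became 5 with hormone genes left out and 16 without beta replicates 1 and 2 together. In delta against alpha cells, 23 higher and 0 lower became 7 and 1, 8 and 1, and 8 and 1 with these scalings. Leaving out each library in turn gave 14 to 31 higher in delta than beta cells, 5 to 14 higher and 5 to 11 lower in alpha than beta cells, and 10 to 26 higher in delta than alpha cells. The signs of delta minus beta turned for Ift22 with median-ratio scaling (-0.0231) and for Ift43 (-0.0603) and Bbs10 (-0.0171) with quantile normalization. Over the 47 tested genes, the 3 comparisons and the 23 alternatives, 312 calls were lost and 123 gained. The cause was not tested. The interaction with sex could not be fitted without alpha replicate 3, the only female alpha library, and there is no sex result where sex was not a term. A term for the sets of title numbers gave 37 higher in delta than alpha cells, where 44.9% of all genes were higher. The 4 pairs with adjoining title numbers were also fitted as a replicate block, without the 2 libraries in no pair, and both fits were chosen after seeing the data. The block gave 37 higher and 0 lower in delta than beta cells, 7 higher and 9 lower in alpha than beta cells, and 29 higher and 0 lower in delta than alpha cells. The share of all genes called with the block is not given here, so these counts are not read as a result about the cilium genes. Deviations from the group means correlated across genes by 0.0014 to 0.464 within the pairs and by -0.564 to 0.403 between other libraries. In 3 of the 4 pairs the delta or alpha library correlated best with its own beta library. With 2 delta libraries, their deviations are mirror images of each other, so the delta pairs are not separate evidence. Each pair is also of 1 sex, and sex was not taken out of the deviations. The correlations therefore cannot decide whether the pairs share islets. Depth limits the Gli genes, with at most 22 reads for Gli2 and Gli3 in a library.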
